A study of Mus musculus with 6 samples.

Results

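Lysine is broken down in mammals by a chain of mitochondrial enzymes that ends in acetyl-CoA, and Dhtkd1 encodes the subunit of the 2-oxoadipate dehydrogenase complex that makes glutaryl-CoA in the middle of that chain. The genes described here are 9 enzymes that act before, beside or after the Dhtkd1 step, chosen by name: Aass, Aldh7a1, Aadat, Pipox, Crym, Gcdh, Echs1, Hadh and Acat1. They are 9 of 27376 gene names on the array, and 9 of the 21455 names with a probe bright enough to test. Every non-control probe that carried one of these names was used. That gave 10 probes, because Aldh7a1 has a pair of them, and all 10 were well above background and unsaturated on all 6 arrays.

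The study measured RNA of the spinal cord of male C57BL/6 mice aged 8 weeks on single-colour Agilent expression arrays. It compared 3 wild-type samples with 3 Dhtkd1 null samples, and both groups share strain, sex, age and tissue. The labels give no other allele or agent, and do not say which part of Dhtkd1 was removed or how. They do not say that the samples of a group came from separate animals, so p-values measure the spread between these samples, which may be technical.

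In the main route, AASS joins lysine to 2-oxoglutarate and splits the product, ALDH7A1 oxidises the resulting semialdehyde to 2-aminoadipate, and AADAT moves its amino group to give 2-oxoadipate, the substrate of DHTKD1. A side route through pipecolate, which is known from brain, uses the ketimine reductase CRYM and the peroxisomal oxidase PIPOX. After DHTKD1, GCDH turns glutaryl-CoA into crotonyl-CoA, and ECHS1, HADH and ACAT1, which also serve fatty acid oxidation, carry it to acetyl-CoA. Inherited loss of GCDH causes glutaric aciduria type I, and loss of ALDH7A1 causes pyridoxine-dependent epilepsy.

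Signals are Agilent's processed intensities, in arbitrary units. For the tests, each was put on the log2 scale and set relative to the array's 75th percentile, so 0 is the level of that percentile. A difference is null minus wild-type on that log2 scale, from limma fitted to all 33182 probes kept. Adjusted p is Benjamini-Hochberg's over all of them. A level of one probe cannot be set against a level of another, because probes differ in how well they hybridise.

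None of the 9 enzymes passed an adjusted p of 0.05. The members' differences lay between -0.28 for Pipox and 0.30 for Aass and had a median of -0.08; 3 were positive and 6 negative. The largest, that of Aass, is 1.23-fold. Over all probes kept, the median difference was 0.03, and 56.8% of them were higher in the null group. The median size of the difference was 0.12 over the 9 enzymes and 0.12 over all probes. Aass was the only member below 0.05 before adjustment (unadjusted p = 0.0473, adjusted p = 0.605, limma). Limma called 0 of 33182 probes at an adjusted p under 0.05, which is 0% of them, and 2721 at an unadjusted p under 0.05. Of all probes kept, 5.36% were higher and 2.84% lower at an unadjusted p under 0.05, so 1 of 9 enzymes higher and 0 of 9 lower is near that background.

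The 4 members with the largest differences or with groups that did not overlap are Aass, Pipox, Gcdh and Hadh. The first 30 bases of each one's 60-base array probe follow as deposited, written in lower case with no base marked, to show which stretch of each transcript the values below report. Their mm9 positions stand with the results.

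Aass: tattgtgcttccttttccccgagaacatat
Pipox: gacactgggtgaacttgcgattgctttgac
Gcdh: agatggagcagaccttgtgagaaggtgcaa
Hadh: agtcatggggttcttccactgaaatggaat

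The exon or untranslated region under each probe was not analysed here.

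Dhtkd1 itself was lower in all 3 null samples on both of its probes, and its RNA was still well above background there. The brighter probe (mm9 chr2:5825028-5825087) read 183.2, 113.6 and 121.5 in wild-type replicates 1 to 3 and 52.4, 91.2 and 63.0 in null replicates 1 to 3. Every null sample was below every wild-type sample. The difference was -1.07 (SE 0.28), or 2.11-fold, with an unadjusted p of 0.00925 and an adjusted p of 0.510 (limma). The other probe (chr2:5817910-5817969) gave -1.08 (SE 0.08) and an adjusted p of 0.0862, the lowest of all probes. With normexp background correction the differences were -0.68 and -0.57, and with the slide as a fixed block the brighter probe gave -0.78 (unadjusted p = 0.109). Over its 18 alternatives, the slide block among them, the other probe's difference stayed between -1.16 and -0.57, with no adjusted p under 0.05 (limma). Whether either probe lies in the removed part of the gene is not known here, so the drop describes the RNA at those positions.

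Of the enzymes before the Dhtkd1 step, Aass, which catalyses the entry into the route, had the largest difference of the 9. Its probe (chr6:23022668-23022727, minus strand) read 449.9, 537.1 and 435.2 in wild-type replicates 1 to 3. The null replicates read 552.1, 650.8 and 611.2. The groups overlapped after scaling: wild-type replicate 2, at -0.87, was above null replicate 1, at -0.90, and the other null samples were above all wild-type samples. The scaled mean of the wild-type group was -1.03 ± 0.13 and that of the null group -0.72 ± 0.17 (SD, n = 3 each), a difference of 0.30 (SE 0.12, 95% interval 0.01 to 0.60) with an adjusted p of 0.605 (limma). The exact permutation test, two-sided, gave p = 0.2, where the smallest value that 3 against 3 samples allow is 0.1. The size of this difference exceeds that of 83.1% of all probes kept.

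The slides were not balanced between the groups. Wild-type replicate 2 and all 3 null samples were on 1 slide, and wild-type replicates 1 and 3 on the other. With the slide as a block, which leaves wild-type replicate 2 as the only wild-type sample beside null samples, the Aass difference was 0.15 (adjusted p = 0.873, limma), and slide and the loss of the other wild-type samples cannot be told apart in that value. As a random block, the slide left it at 0.30 (adjusted p = 0.616, limma). It was positive in all 20 alternative analyses and had an unadjusted p under 0.05 (limma) in 12 of them. Those that change only the filter, the probes used for a gene, limma's trend option or the replicate block left the Aass difference itself unchanged. Their sign was therefore fixed in advance. Slide 1 alone gave the same 0.15 as the slide block, because the other slide held no null sample, so these are not separate evidence.

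Aldh7a1, the semialdehyde dehydrogenase, showed nearly equal levels in both groups on its brighter probe (chr18:56718881-56718940). That probe read 200.2, 225.1 and 163.9 in wild-type and 225.2, 166.6 and 211.9 in null replicates 1 to 3. The groups covered almost the same range. The difference was -0.02 (SE 0.13, 95% interval -0.35 to 0.32) with an adjusted p of 0.978 (limma). The dimmer probe (chr18:56686001-56686060) had the opposite sign, 0.21 (SE 0.21, adjusted p = 0.787), with an interval of -0.31 to 0.73 that also holds 0.

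Aadat, the aminotransferase that makes the substrate of DHTKD1 and also acts on kynurenine, was dim and similar in the groups. Its probe (chr8:63024177-63024236, plus strand) read 41.1, 43.7 and 34.3 in wild-type and 41.5, 41.5 and 33.9 in null replicates 1 to 3. In each group, replicate 3 was the lowest sample. The difference was -0.08 (SE 0.12, 95% interval -0.38 to 0.22, adjusted p = 0.862, limma).

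**Figure D1:**
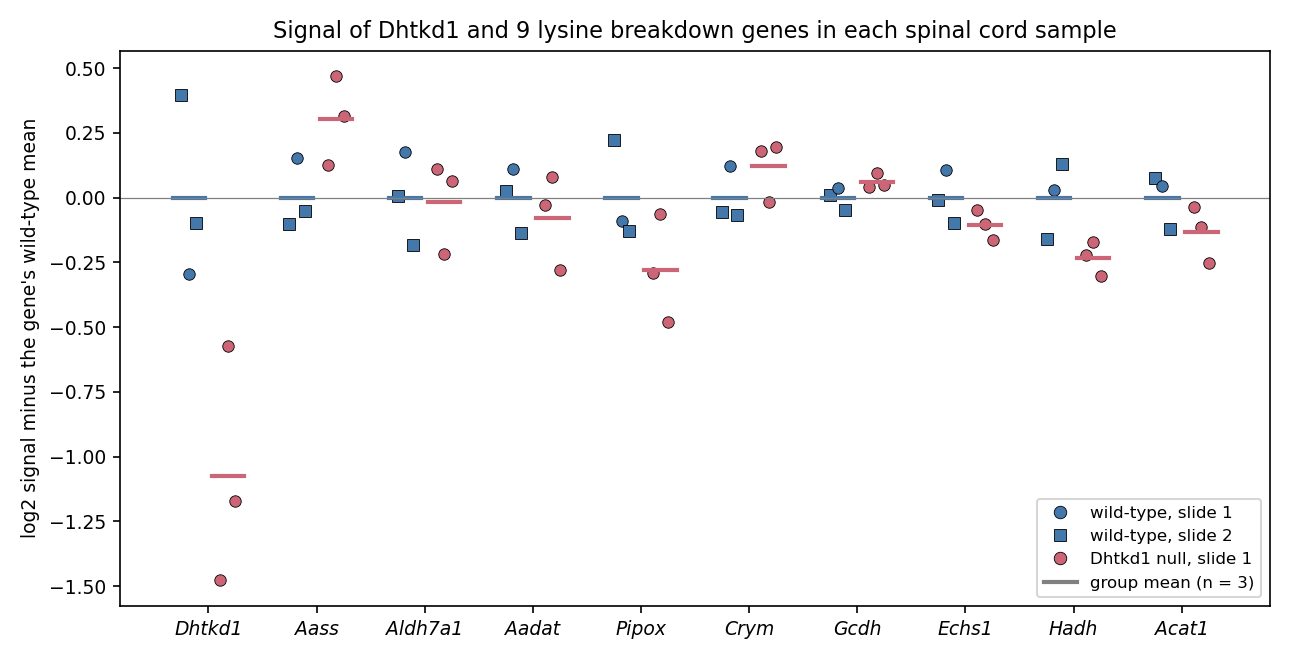
Scaled log2 level (log2 processed signal minus the array's 75th percentile) of Dhtkd1 and of each of the 9 enzymes, minus the gene's wild-type mean. All genes stand side by side on 1 axis, each at its brightest probe. Points are the 6 arrays, circles for slide 1 and squares for slide 2, and lines are group means (n = 3). The 3 null samples lie below the 3 wild-type samples for Dhtkd1 and Hadh and above them for Gcdh, and the groups overlap for the other 7 genes.

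In the pipecolate branch, Pipox, the peroxisomal oxidase, was the member with the largest negative difference. Its probe (chr11:77694273-77694332, minus strand) read 942.4, 760.0 and 690.8 in wild-type replicates 1 to 3 and 693.6, 753.8 and 590.2 in null replicates 1 to 3. Wild-type replicate 1 was the highest and null replicate 3 the lowest, and the other samples lay close together. The difference was -0.28 (SE 0.15, 95% interval -0.64 to 0.09), with an unadjusted p of 0.111 and an adjusted p of 0.655 (limma). Dropping wild-type replicate 1 gave -0.17, dropping null replicate 3 gave -0.18, and the slide block gave -0.19.

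Crym, the ketimine reductase of the same branch and a binder of thyroid hormone, read 85.6, 97 and 79.4 in wild-type and 105.8, 85.7 and 104.0 in null replicates 1 to 3 (chr7:127329970-127330029, minus strand). Null replicates 1 and 3 were above all wild-type samples, and null replicate 2 was among them. The difference was 0.12 (SE 0.10, 95% interval -0.12 to 0.36, adjusted p = 0.753, limma). With the slide as a block it was -0.0026.

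After the Dhtkd1 step, Gcdh, the glutaryl-CoA dehydrogenase, was slightly higher in every null sample, by less than the error of the difference. Its probe (chr8:87410553-87410609, minus strand) read 3158.9, 3229.6 and 2839.8 in wild-type and 3385.7, 3262.4 and 3306.4 in null replicates 1 to 3. After scaling, the highest wild-type sample and the lowest null sample both stood at 1.71, so the gap between the groups was very small. The means were 1.68 ± 0.04 and 1.73 ± 0.03 (SD, n = 3 each). The difference was 0.06 (SE 0.07, 95% interval -0.11 to 0.23), or 1.04-fold, with an adjusted p of 0.807 (limma). When each array was centred on its median, the difference was 0.01 and the groups overlapped. Without wild-type replicate 3 it was 0.037.

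Hadh, the hydroxyacyl-CoA dehydrogenase, was lower in every null sample after scaling. Its probe (chr3:130936889-130936948, minus strand) read 3110.1, 3551.4 and 3546.2 in wild-type replicates 1 to 3. The null replicates read 3119.2, 3001.3 and 2869.9. On the scaled log2 level the null samples, at 1.60, 1.65 and 1.52, all lay below the wild-type samples, at 1.66, 1.85 and 1.95, though null replicate 2 and wild-type replicate 1 nearly met. The difference was -0.23 (SE 0.10, 95% interval -0.48 to 0.01), or 1.18-fold, with an unadjusted p of 0.0570 and an adjusted p of 0.610 (limma). With the slide as a block it was -0.26. The exact permutation p of 0.1, two-sided, is the smallest that the design allows.

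Gcdh and Hadh were the only members whose groups did not overlap, 1 higher and 1 lower in the null group. Among all probes kept, 9.04% did not overlap and were higher, and 5.29% did not overlap and were lower, and 1 of 9 in each direction is near those shares.

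Echs1, the enoyl-CoA hydratase that acts on crotonyl-CoA, was bright in all samples. Its probe (chr7:147291772-147291831, minus strand) read 8316.8, 9006.4 and 7299.1 in wild-type and 8491.1, 7588.9 and 7597.4 in null replicates 1 to 3. The wild-type samples spread over a wider range than the null samples; after scaling, null replicate 1 lay inside it and the other null samples just below it. The difference was -0.10 (SE 0.08, 95% interval -0.31 to 0.10, adjusted p = 0.750, limma). With the slide as a block it was -0.21. Dropping wild-type replicate 2 gave -0.052.

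Acat1, the thiolase that yields acetyl-CoA, read 5512.4, 5416.2 and 4500.2 in wild-type and 5357.6, 4708.7 and 4484.6 in null replicates 1 to 3 (chr9:53389868-53389927, minus strand). In each group replicate 3 was the lowest. The difference was -0.13 (SE 0.10, 95% interval -0.37 to 0.10, adjusted p = 0.718, limma), and -0.076 without null replicate 3. Hadh, Echs1 and Acat1, the shared enzymes of the last stretch, thus all had negative differences, of 1.18-fold, 1.08-fold and 1.10-fold, and none passed the test.

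**Figure D2:**
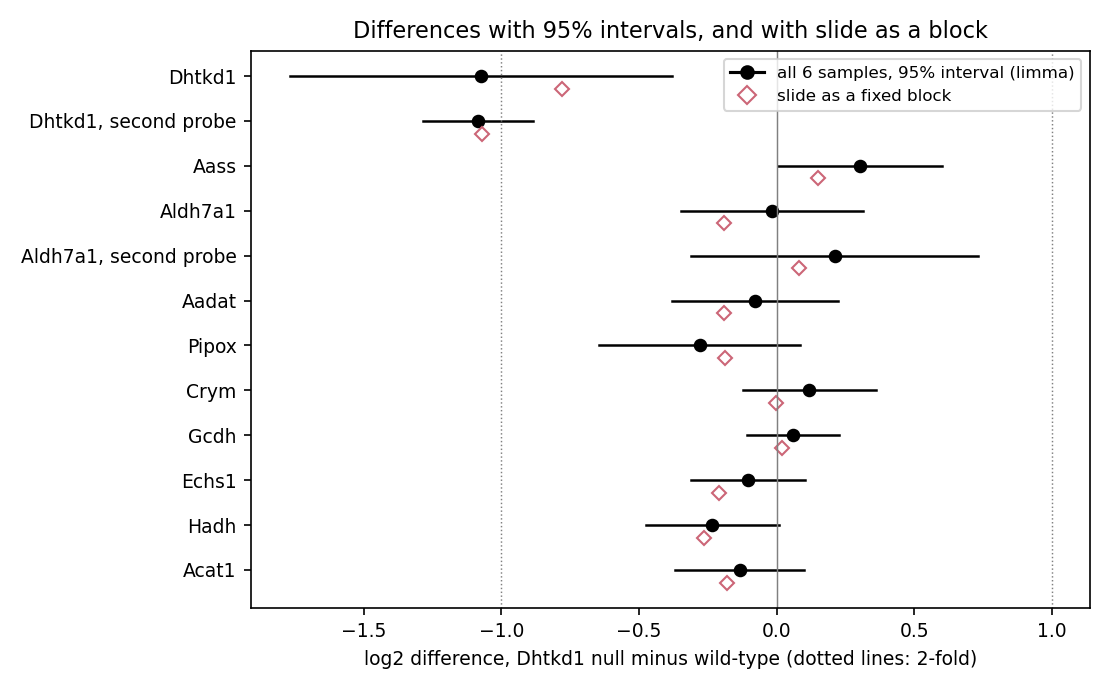
Log2 difference (null minus wild-type, scaled log2 signal) of each enzyme's probe and of Dhtkd1, with 95% intervals from limma, n = 3 a group. The interval of Aass, from 0.01 to 0.60, is the only one of the 9 enzymes' brightest probes that leaves out 0, and the Dhtkd1 difference of -1.07 lies well below all of them.

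On the brightest probes, the SE of the members' differences lay between 0.068 and 0.149. Their 95% intervals, read as folds of null over wild-type, lay within 0.640 and 1.52. From the lowest to the highest of the 6 arrays, the members varied by 1.10-fold to 1.63-fold on these probes. The dimmer Aldh7a1 probe had an SE of 0.21, an upper interval bound of 1.66-fold and a range of 1.69-fold.

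**Figure D3:**
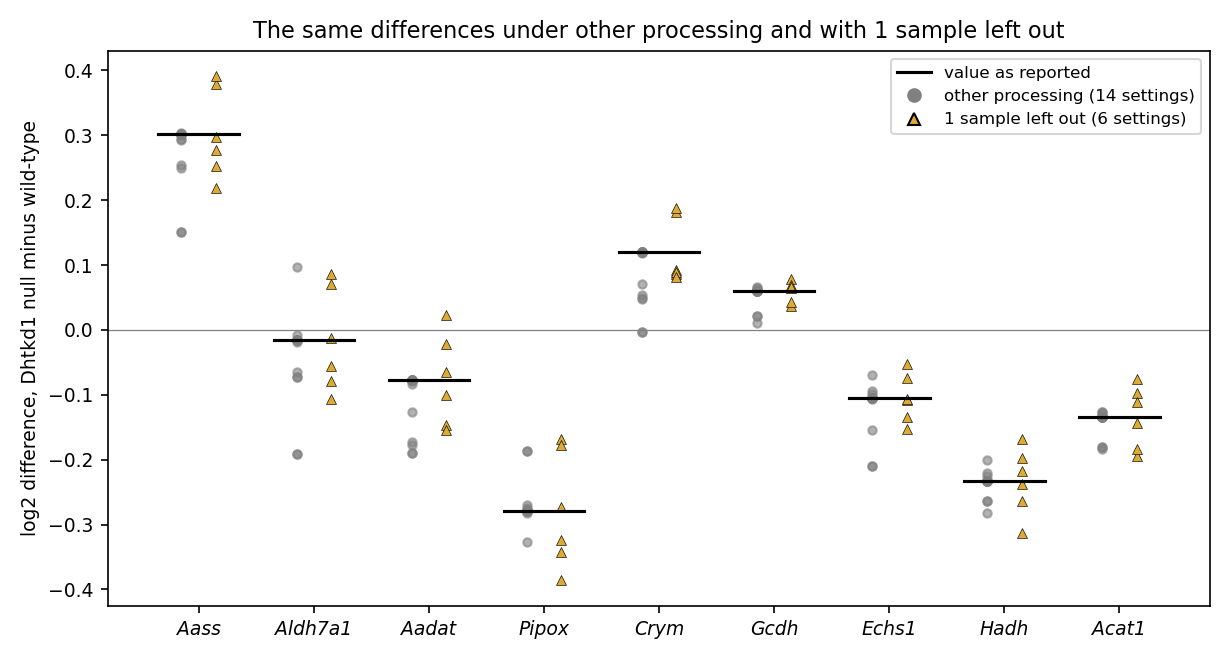
Log2 difference (null minus wild-type) of each enzyme under the main analysis and under its 20 alternatives, such as other scalings, the slide as a block and each sample left out. The differences of Aass stay between 0.15 and 0.39 and those of Hadh between -0.31 and -0.17, while those of Aldh7a1, Aadat and Crym lie on both sides of 0.

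The genes whose profile over the 6 arrays was most like that of Aass were Naip5, Hhex and Nit1, by the root mean square difference after each gene was centred on its own mean. That measure was 0.0407 for Naip5, 0.0506 for Hhex and 0.0592 for Nit1 among 15744 genes, against 0.197 for the spread of Aass about its own mean. Naip5 encodes a sensor of bacterial flagellin, Hhex a homeobox factor, and Nit1 a nitrilase-like amidase. The order of likeness is a description of these 6 arrays.

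Genes of neighbouring pathways had differences from -0.59 to 0.60, and none passed the test. Beside the 9 enzymes, 93 genes in 9 lists were tested, Dhtkd1 left out. Their median difference was -0.05, with 30 positive and 63 negative. Of all probes kept, 56.8% were higher in the null group, with a median difference of 0.03. With median centring that all-probe median was -0.02, so the signs of differences this small depend on the scaling. Limma called 0 of the 93 genes at an adjusted p under 0.05. At an unadjusted p under 0.05, 2 were higher, or 2.15%, and 4 were lower, or 4.30%, against 5.36% and 2.84% of all probes. The lists were drawn up with earlier results of these data known, and so give no independent evidence.

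Among the other lysine genes (the saccharopine, hydroxylysine and aminoadipate enzymes, carriers and transport), 11 were tested beside Dhtkd1. Their differences ran from -0.41 to 0.19 around a median of -0.01, 5 positive and 6 negative. The lowest of these was Sugct, which returns free glutarate to glutaryl-CoA and is named here after its values were seen. Its difference was -0.41 (SE 0.19) with an unadjusted p of 0.0748 and an adjusted p of 0.628, and a second probe also gave -0.41. Its groups overlapped, and without wild-type replicate 3 the difference was -0.26.

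All 3 acceptor genes that pass on the electrons from GCDH had negative differences. Etfa, a subunit of the electron transfer flavoprotein, averaged 1.68 ± 0.03 over wild-type samples against 1.53 ± 0.03 over null samples (SD, n = 3 each). Its groups did not overlap, as was the case for 5.29% of all probes in that direction, and its adjusted p was 0.626 (limma). Etfb, the other subunit, had a difference of -0.05.

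All 4 genes of carnitine synthesis and uptake had negative differences, with a median of -0.19. Their means per array did not overlap, from 0.05 to 0.13 in wild-type and from -0.13 to -0.03 in null samples after centring. The means of the ketone body list and the peroxisome list did not overlap either. Those of the lysine list were also apart, but that list holds Dhtkd1, whose own difference of -1.07 enters the mean. Its separation therefore says nothing about the other lysine genes. How often the means of such lists separate in these data was not computed, and the lists were drawn up with earlier results known. Slc22a5, the carnitine transporter, had a difference of -0.24 (adjusted p = 0.648), which a second probe put at -0.08 and the slide block at -0.06; without wild-type replicate 3 it was -0.12. Bbox1, the last enzyme of carnitine synthesis, had -0.21 (adjusted p = 0.673), and -0.11 without null replicate 3. No member of this group passed the test.

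Mitochondrial beta-oxidation, which shares Echs1 and Hadh with lysine breakdown, was split: of 16 genes, 7 had positive and 9 negative differences, and their median was -0.03. Cpt1c, the neuronal carnitine palmitoyltransferase, was 0.16 higher (adjusted p = 0.620, limma). Its groups did not overlap, as was the case for 9.04% of all probes in that direction. Cpt1a, the liver-type enzyme, had a difference of -0.18 (adjusted p = 0.673), which became -0.27 when wild-type replicate 1 was dropped and -0.11 when wild-type replicate 2 was.

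Of the ketone body and acetoacetyl-CoA genes, which share Acat1, 6 of 7 had negative differences, with a median of -0.14. Hmgcs1, the cytosolic HMG-CoA synthase of cholesterol synthesis, had the lowest, -0.51 (SE 0.17), with an unadjusted p of 0.0262 and an adjusted p of 0.577 (limma). Its groups overlapped, and its other probes gave -0.17 and -0.61. The list's mean per array was 0.05 to 0.09 in wild-type and -0.11 to -0.04 in null samples, with no background share computed for list means.

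The branched-chain amino acid genes, which use the same last steps, had a median of -0.03 over 15 genes, 5 of them positive and 10 negative. Ivd, the isovaleryl-CoA dehydrogenase, had a difference of -0.18, and Pcca, a propionyl-CoA carboxylase subunit, -0.15. Neither passed the test. Dropping null replicate 3 put Ivd at -0.090, and dropping null replicate 2 put it at -0.29. Pcca was at -0.056 with wild-type replicate 3 dropped and at -0.25 with wild-type replicate 1 dropped.

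Of 13 peroxisome genes measured beside Pipox, 12 had negative differences, with a median of -0.06. Cat, the catalase that removes the hydrogen peroxide made by oxidases such as PIPOX, had a wild-type mean of 2.03 ± 0.20 and a null mean of 1.63 ± 0.08 (SD, n = 3 each), a difference of -0.40 (SE 0.12) with an adjusted p of 0.548 (limma). Ddo, the D-aspartate oxidase, gave -0.59 (SE 0.21, adjusted p = 0.582), and its other probes -0.16 and -0.69. Both genes' groups did not overlap, as did those of 5.29% of all probes in the same direction.

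The thyroid hormone genes, listed because CRYM binds the hormone, held the smallest p of these lists, with each gene at its brightest probe. Slco1c1, a thyroxine transporter of the blood-brain barrier and astrocytes, stood at 0.80 ± 0.08 on the wild-type arrays against 0.36 ± 0.11 on the null arrays (SD, n = 3 each). Its difference was -0.44 (SE 0.09), with an unadjusted p of 0.00298 and an adjusted p of 0.407 (limma). With the slide as a block it was -0.53.

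Hr, a nuclear corepressor gene that responds to thyroid hormone, was 0.60 higher (SE 0.18, adjusted p = 0.549), and 0.27 with the slide as a block. Nrgn, the postsynaptic protein neurogranin, was 0.43 higher (SE 0.15, adjusted p = 0.577), and 0.65 with the slide as a block. The groups did not overlap for any of these 3 genes, against 9.04% of all probes higher and 5.29% lower in that way. In all, 7 of the 10 thyroid hormone genes had positive differences, with a median of 0.12.

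Of the related aldehyde dehydrogenases and aminotransferases, 14 were tested. Their median was -0.08, and 10 of the differences were negative and 4 positive. Aldh1l2, a mitochondrial folate enzyme, had a difference of -0.51 (SE 0.29, adjusted p = 0.672), which was -0.98 with the slide as a block and -0.17 on its other probe. Dropping wild-type replicate 1 gave -0.81, and dropping wild-type replicate 2 gave -0.28. Aldh3a2, the fatty aldehyde dehydrogenase, had -0.15 (adjusted p = 0.640).

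**Figure D4:**
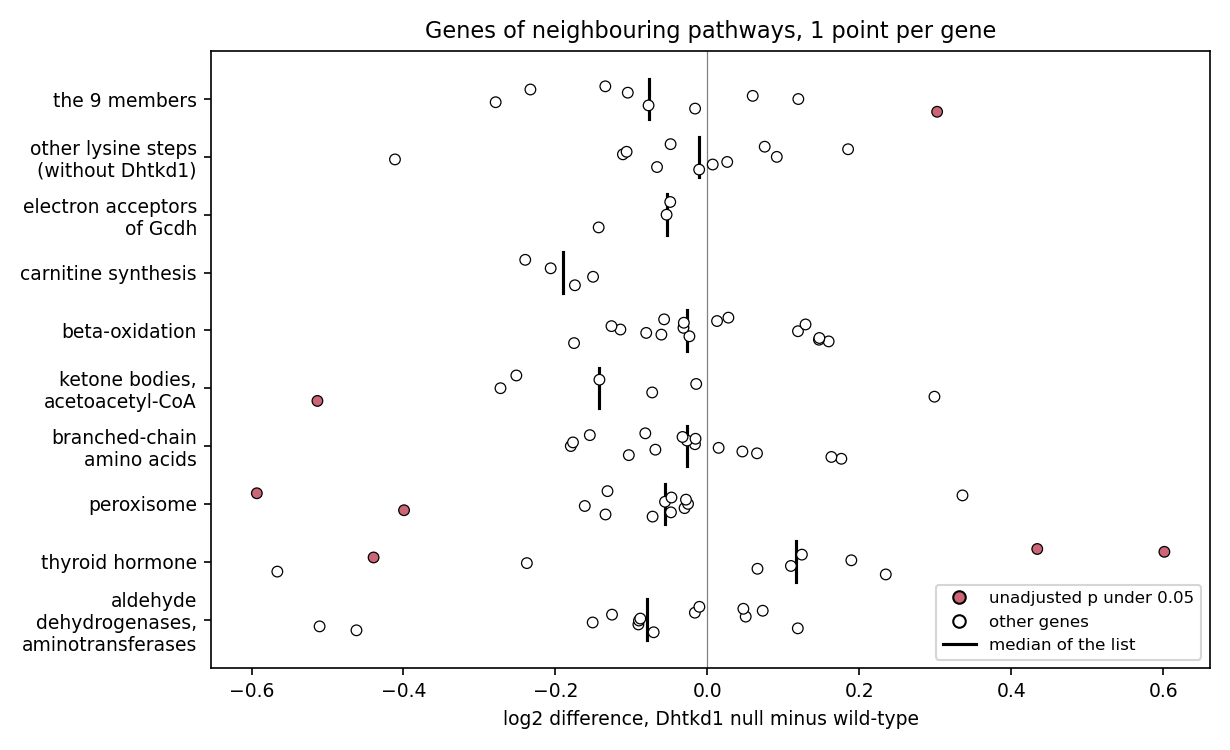
Log2 difference (null minus wild-type) of every tested gene in the 9 pathway lists and of the 9 enzymes, 1 point a gene at its brightest probe, with each list's median as a bar and Dhtkd1 left out. Most points lie within 0.3 of 0, and the medians lie between -0.19 for carnitine synthesis and 0.12 for thyroid hormone handling.

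The labelled tissue held its defining RNAs: all 10 neuron, 8 oligodendrocyte, 8 astrocyte and 5 spinal Hox markers were well above background on at least 3 arrays, as were 2 of the 4 liver markers measured, Apoa2 on 4 arrays and Ahsg on 5; Alb and Fgb were not. Some markers of other tissue moved with single arrays or with the groups, and in bulk RNA fewer cells of a type and less RNA per cell cannot be told apart. The summed level of the 5 Hox genes, in units of each array's 75th percentile, was 7.64 to 10.4 in wild-type and 11.3 to 13.7 in null samples, and that of 5 endothelial markers was 15.5 to 16.5 and 16.5 to 22.5. On the mean of the centred log2 levels both lists overlapped between the groups, and Tek and Cdh5 of the endothelial list had negative differences. The 7 microglia markers summed to 10.5 to 15.6 and 15.2 to 17.4, with wild-type replicate 1 the lowest array. Of these, Aif1, C1qa and C1qb were higher in all null samples, against 9.04% of all probes, while P2ry12 had a difference of -0.22 and Cx3cr1 0.02.

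All 8 skeletal muscle markers were measured, and wild-type samples covered 10.2 to 66.1, a wider range than the 36.1 to 42.6 of null samples. The 6 adipocyte markers summed to 0.295 to 2.51 and 0.677 to 6.38. Their highest array was null replicate 2, which was also the highest for Aass. On the scaled level, wild-type replicate 1 was the lowest for both. Null replicate 3, the next highest for Aass, had an adipocyte sum of 0.677, below the 2.51 of wild-type replicate 2. The 5 Schwann cell markers summed to 23.6 to 110 in wild-type and 17.0 to 39.6 in null samples. Their top was in wild-type replicate 1, where Pipox was also highest. Their lowest array was null replicate 1, whereas Pipox was lowest in null replicate 3. All 5 meninges markers had negative differences, and they summed to 24.2 to 90.7 in wild-type and 12.2 to 56.0 in null samples. All 4 red blood cell markers had positive differences, and they summed to 36.0 to 69.8 and 51.3 to 81.4. Sox10, an oligodendrocyte and Schwann cell factor listed with the oligodendrocyte markers, was named here after its values were seen. It had a difference of -0.46 (SE 0.12, adjusted p = 0.510, limma). Its groups did not overlap, as was the case for 5.29% of all probes in that direction. The part of these markers in the enzymes' values was not tested.

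**Figure D5:**
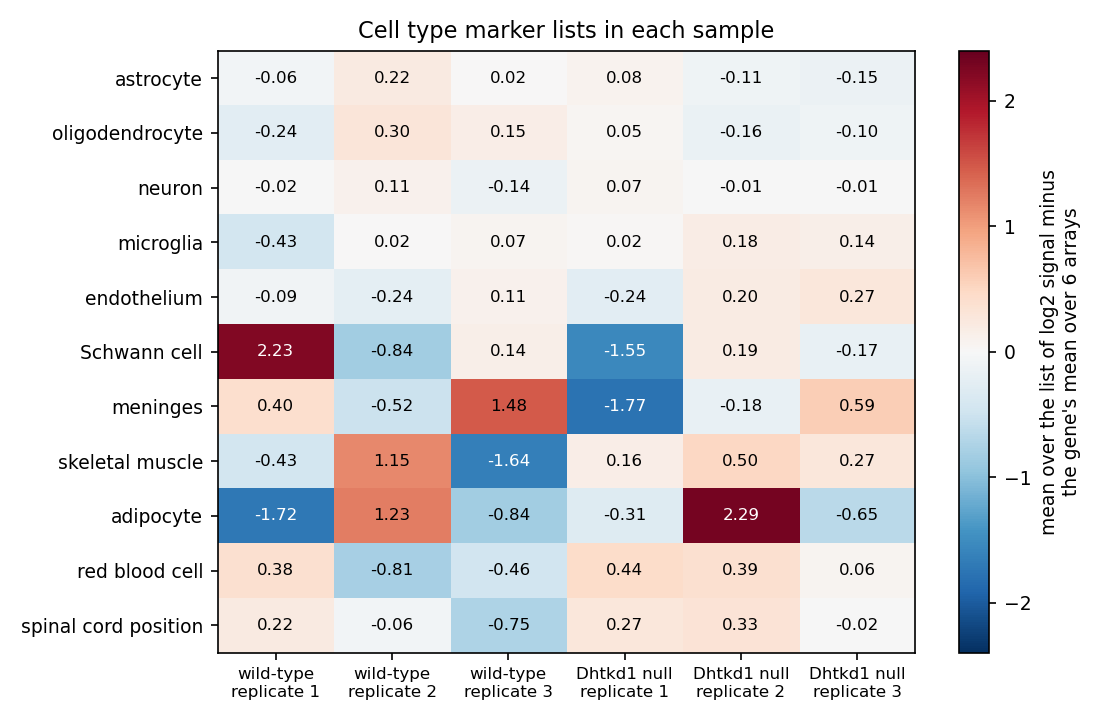
Mean scaled log2 level of each marker list on each array, centred on the list's mean over the 6 arrays; lists are rows and arrays are columns, and the number in a cell is that mean. The neuron list varies from -0.14 to 0.11, while the Schwann cell list reaches 2.23 in wild-type replicate 1 and the adipocyte list 2.29 in null replicate 2.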

How the data were processed

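Deposited scanner files give spot intensity, processed by the authors with Agilent Feature Extraction 10.7.3.1, per the file headers. The deposited value table was made by the authors in log2 units (centring and method not given in the sources used here) and served as an alternative.

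Control and outlier spots were left out and spots of a probe averaged. The log2 processed signal minus the array's 75th percentile was used. Probes well above background on at least 3 of 6 arrays (33182) were fitted with limma 3.58.1 in R 4.3.3, null against wild-type, with no covariates, and Benjamini-Hochberg adjustment. The calculation was tested on simulated data. Single values were also compared by exact permutation.

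The members and lists were chosen with earlier results of these data known. Named genes were Dhtkd1, all members, and, of each list, those at an unadjusted p under 0.05 (at most 4) or otherwise the 2 with the smallest p. For likeness, the 3 nearest profiles were named. The brightest probe stood for a gene.

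Alternatives were quantile and median scaling, normexp, the authors' table, filters, 1 probe a gene, limma with trend, the slide, a replicate block and leaving out each sample.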

Additional observations from a re-analysis of the deposited data

How the results depend on the processing

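The number of enzymes at an adjusted p under 0.05 was 0 under every alternative run. At an unadjusted p under 0.05 it was 1 (Aass), and it became 0 with median centring, with no filter on dim probes, with the slide as a fixed block and on slide 1 alone, and 2 (Aass and Hadh) with normexp and with limma's trend and robust options. Leaving out 1 sample gave 0 to 1: it was 0 without wild-type replicate 3 or null replicate 3, Hadh alone without wild-type replicate 1, and Pipox alone without null replicate 2. The number with groups that do not overlap was 2 (Gcdh and Hadh). It became 3 with median centring (Pipox, Echs1 and Hadh) and with the authors' table (Gcdh, Echs1 and Hadh), 1 with normexp and 6 on slide 1 alone, where wild-type replicate 2 stands alone, and 2 to 4 with 1 sample left out. With fewer samples there are fewer values that can overlap, and the share of all probes without overlap was not computed for these settings.

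Of 559 alternatives of 29 results for single genes or probes, 6 changed sign. Alternatives of the filter or of limma's trend option leave a probe's difference unchanged and could not change its sign. With 1 sample left out, Aldh7a1 ranged from -0.11 to 0.086 (0.071 without wild-type replicate 2, and 0.086 when null replicate 2 was dropped) and Aadat from -0.15 to 0.024 (positive without null replicate 3). Aldh7a1 was 0.10 as the mean of its probes, and Crym became -0.0026 with the slide as a block and on slide 1 alone. Those settings give the same difference for every gene, because slide 2 holds only wild-type samples. They are counted separately here but are not separate evidence. What lay behind the sign changes was not tested. The ketone body list's median went from -0.14 to -0.24 and the peroxisome list's from -0.06 to -0.16 with the slide as a block.

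The labels do not say that shared replicate numbers pair the samples. Deviations of same-numbered samples correlated at -0.02, -0.09 and 0.30, and those of the other pairs across groups at -0.20 to 0.24. With 3 samples a group, these values cannot decide whether samples were paired. With the replicate block, 1 enzyme (Aass, 0.30) had an unadjusted p under 0.05 and 0 an adjusted one. Over all probes the replicate block gave 2519 at an unadjusted p under 0.05, against 2721 without it. Every member probe was well above background on all arrays.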
